A study of Xenopus tropicalis with 16 samples.

Results

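The antioxidant, thioredoxin and glutathione genes encode the enzymes that clear superoxide and peroxides, the 2 thiol systems that keep those enzymes reduced, and the regulators of their transcription. They were chosen by gene symbol: superoxide dismutases and their copper chaperone, catalases, glutathione peroxidases, peroxiredoxins, thioredoxins and their reductases, glutaredoxins, glutathione synthesis and turnover enzymes, the NRF2 axis, methionine sulfoxide reductases, biliverdin reductases, metallothionein and park7. The symbols matched 49 of the 19921 genes in each table.

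RNA was sequenced from livers of female Xenopus tropicalis, the tropical clawed frog, to find hepatic genes that respond to long exposure to endocrine disruptors. The 16 libraries form 4 groups of 4 biological replicates: livers labelled mixture, livers of frogs given benzo[a]pyrene, livers of frogs given triclosan, and livers of frogs that were not exposed. Benzo[a]pyrene, a polycyclic aromatic hydrocarbon formed in combustion, binds the aryl hydrocarbon receptor. Triclosan is an antibacterial agent of household products. The sources used here give neither the components of the mixture nor the doses, the durations, the age and strain of the frogs, or whether each replicate was 1 frog. If replicates shared a source, the p-values measure only the spread between these libraries.

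In vertebrate liver, superoxide dismutases turn superoxide into hydrogen peroxide, which catalase, the glutathione peroxidases and the peroxiredoxins then reduce. Peroxiredoxins are recharged mainly by thioredoxin and thioredoxin reductase, and glutathione peroxidases by glutathione and glutathione reductase, both at the cost of NADPH. The transcription factor NRF2, encoded by nfe2l2, is held low by keap1 and drives many of these genes when electrophiles or oxidants modify keap1. Roles below are as known from mammals.

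Levels are FPKM, fragments per kilobase of transcript scaled to the mapped fragments of the library, so they can be compared between genes of different length. Each library was divided by 1 factor to bring the typical gene to the same level across libraries, and differences are on the log2(FPKM + 1) scale, which understates the change of genes near or below 1 FPKM. The confidence intervals deposited with each value imply 10900000 to 17900000 fragments per library, if they hold counting error alone. Of the 49 genes, 37 reached 1 FPKM in at least 4 of 16 libraries and were tested among 6918 genes. The 12 others were gpx2, gpx8, ggt5, GGT6, ggt7, gss, nfe2l1, maff, mafg, mafk, ccs and txnrd1. Errors on differences are standard errors.

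Among the libraries, mixture replicate 4 stood apart, with 10.6% of its summed FPKM on genes named as ribosomal RNA, followed by benzo[a]pyrene replicate 4 with 3.45%. The other 14 libraries lay between 0.589 and 2.39%. The rescaling factors ran from 0.584 in mixture replicate 4 to 1.34 in unexposed replicate 3. Of 28 hepatocyte marker rows found, 24 passed the level filter, the highest being serpina1, which encodes alpha-1-antitrypsin and averaged 4213 to 6823 FPKM over the groups. Of the other 4, hnf4a averaged 0.213 to 0.399 FPKM, hpd 0 to 0.104 FPKM and SLC10A1 0 to 0.00908 FPKM, and alb had missing estimates. In benzo[a]pyrene livers, 12 of 18 tested erythroid markers were higher than in unexposed livers at an unadjusted p below 0.05 (8.47% of all genes), 0 of them after adjustment (limma). The erythroid list was chosen with earlier results of these data known, so its count is a description and not independent evidence. The list's summed level, without hba1 and hbg1, ran from 8670 to 28010 FPKM against 4671 to 6528 FPKM in unexposed livers. The rows left out were far larger than this sum. Over the unexposed libraries with an estimate, hba1 averaged 115400 FPKM and hbg1 46050 FPKM. In benzo[a]pyrene livers hbg1 averaged 62440 FPKM and hba1 had no estimate.

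Most antioxidant transcript in these livers came from a handful of genes of peroxide and superoxide removal and of metal binding. Averaged over the 16 libraries, gpx3, the secreted glutathione peroxidase, stood at 1924 FPKM and made up 34.05% of the summed level of the 49 genes. Behind it came the metallothionein mt4 at 942.3 FPKM, the lipid hydroperoxide peroxidase gpx4 at 695.3 FPKM, the cytosolic dismutase sod1 at 544 FPKM and the catalase copy cat.2 at 333.5 FPKM. By implied fragments gpx3 was not first. Its median was 8791 per library, against 22800 for cat.2, 16490 for mt4 and 11260 for sod1. Its rank in FPKM and its share thus depend on the short length of its row, which spans positions 630468 to 631359 of its scaffold. Of all 49 genes, 9 averaged over 100 FPKM, 12 lay between 10 and 100, 15 between 1 and 10, and 13 under 1. Of the thioredoxin and glutaredoxin genes, txn averaged 21.4 FPKM and glrx3 34.5 FPKM. The txn mean includes 131 FPKM in triclosan replicate 3. Among the peroxiredoxins, prdx2 at 262 FPKM, prdx6 at 71.1 FPKM and prdx4 at 44.1 FPKM averaged more than txn. Below txn were prdx3 at 20.1 FPKM, prdx5 at 11.6 FPKM and prdx1 at 7.34 FPKM. Lower were the rate-limiting glutathione synthesis subunit gclc, which averaged 2.39 FPKM, its partner gclm 1.68 FPKM, glutathione reductase gsr 1.58 FPKM and the mitochondrial thioredoxin reductase txnrd2 1.96 FPKM.

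**Figure D1:**
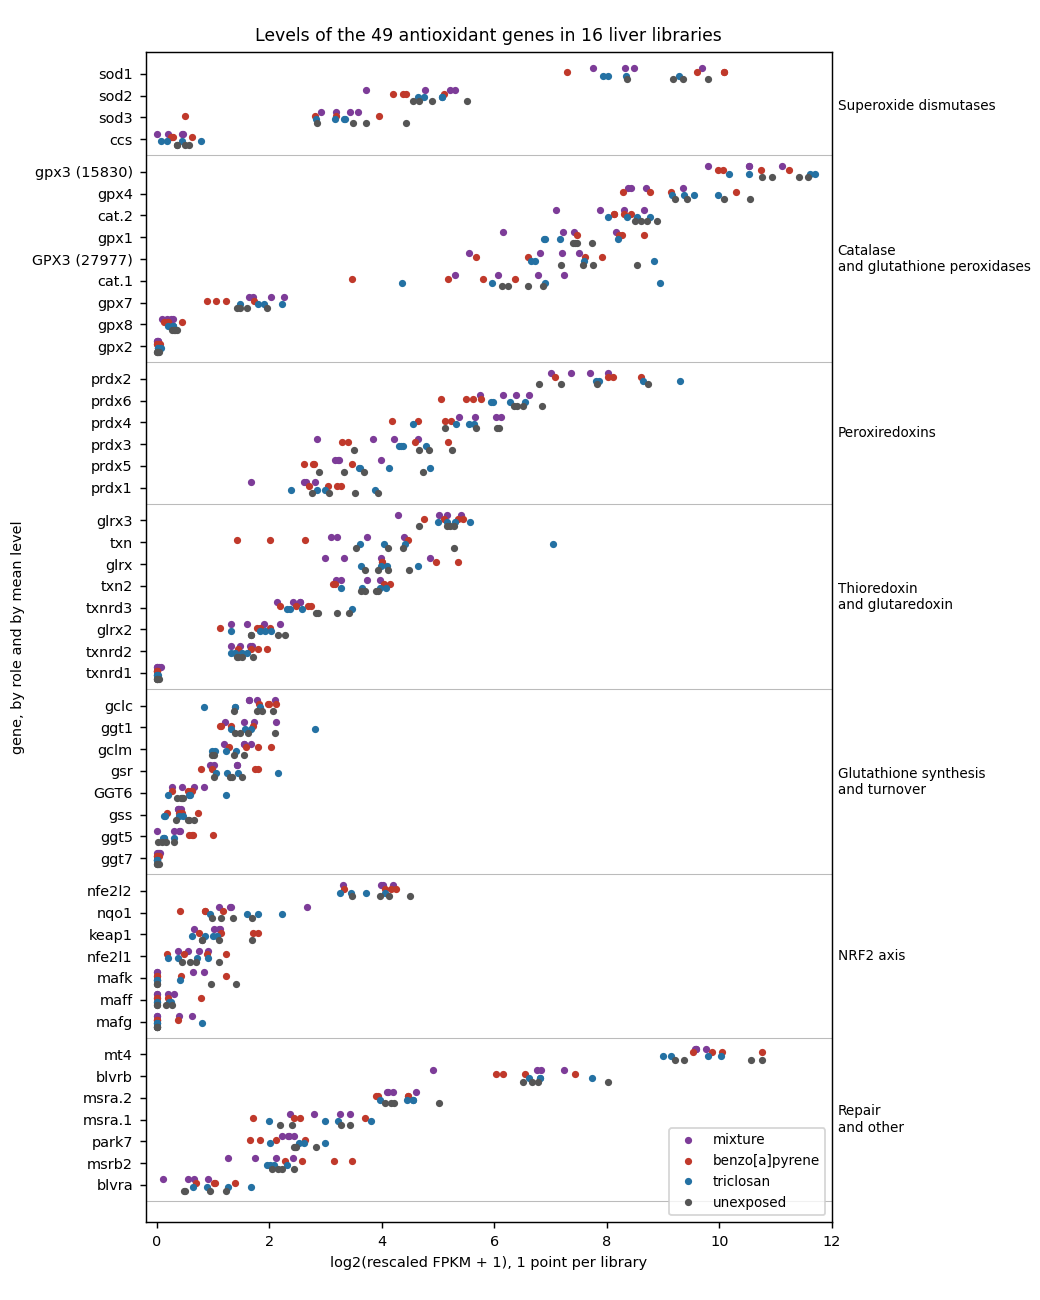
Level of each of the 49 genes as log2(FPKM + 1) on the horizontal axis, 1 point per library, 4 libraries per group, with genes down the page by role and by mean level. The number after gpx3 and GPX3 is the end of its Ensembl identifier. gpx3, mt4, gpx4 and sod1 lie farthest to the right, and glutathione synthesis genes, most NRF2 axis genes and the peroxidases gpx7, gpx8 and gpx2 lie at the left.

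None of the 37 tested genes differed between any 2 groups, or among the 4 groups, at an adjusted p below 0.05 (limma, Benjamini-Hochberg over 6918 genes). Few genes of the whole table did: 0 in the mixture against unexposed (0%), 2 in benzo[a]pyrene against unexposed (0.0289%), 0 in triclosan against unexposed (0%), 5 in the mixture against benzo[a]pyrene (0.0723%), 0 in the mixture against triclosan (0%), 6 in benzo[a]pyrene against triclosan (0.0867%) and 5 among the 4 groups (0.0723%). These counts rest on single libraries: without benzo[a]pyrene replicate 3 they were 46 for benzo[a]pyrene against unexposed, 27 for the mixture against benzo[a]pyrene and 58 for benzo[a]pyrene against triclosan, and without benzo[a]pyrene replicate 4 they were 0 in all 3. With voom on the fragments that the confidence intervals imply, an alternative added after the data were seen, none of the 37 was called in a pairwise comparison either. The spread between livers was wide for these genes, with a median SD within groups of 0.443 log2 units against 0.345 over all tested genes, and the median standard error of their differences was 0.31 log2 units. The values below are therefore given with unadjusted p, read against how many of all tested genes reach the same p.

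In mixture livers, 29 of the 37 genes lay below their unexposed level on average, where 52.2% of all genes did, and the median log2 difference was -0.23 over the 37 genes against -0.02 over all. That median was -0.13 without mixture replicate 4 and -0.12 without unexposed replicate 3, and the median of the 37 genes varied between libraries of a group with an SD of 0.246. At an unadjusted p below 0.05, 4 were lower (10.8% of the 37; 3.21% of all genes) and 0 were higher (3.35% of all genes). The 4 were gpx4, txnrd3, prdx1 and cat.2. The count of 4 was 2 without unexposed replicate 3. Without mixture replicate 4 the log2 difference was -0.96 for prdx1, -0.67 for txnrd3, -0.99 for gpx4 and -0.39 for cat.2, the last with an unadjusted p of 0.105 (limma). Fully separate libraries, every mixture value below every unexposed value, were found for txnrd3 and park7 (2.01% of all genes), and for 0 genes in the higher direction (2.52% of all genes).

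In benzo[a]pyrene livers, 24 of the 37 genes lay below their unexposed level, where 49.6% of all genes did, and the median log2 difference was -0.26 over the 37 genes against 0.004 over all. That median was -0.17 without unexposed replicate 3. At an unadjusted p below 0.05, 5 were lower (13.5% of the 37; 6.06% of all genes): prdx6, prdx4, txn, txnrd3 and park7. Against these, 2 were higher (5.41% of the 37; 8.47% of all genes): msrb2 and gclm. The count of 7 was 3 without benzo[a]pyrene replicate 2 or without unexposed replicate 4, and 4 without benzo[a]pyrene replicate 4 or without unexposed replicate 3. Without benzo[a]pyrene replicate 4 the log2 difference was -0.90 for prdx6, -0.73 for prdx4, -0.61 for txnrd3 and 0.59 for gclm. It was -1.49 for txn, 0.56 for msrb2 and -0.35 for park7, with unadjusted p of 0.0785, 0.0699 and 0.141 in that order (limma). All 4 benzo[a]pyrene libraries lay below all 4 unexposed libraries for prdx6, cat.2 and txnrd3 (2.79% of all genes), and above them for 0 genes (4.96% of all genes).

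In triclosan livers, 24 of the 37 genes lay below their unexposed level, where 50.1% of all genes did, with a median log2 difference of -0.07 against -0.001 over all. That median was -0.20 without triclosan replicate 3, -0.11 without unexposed replicate 4, -0.04 without triclosan replicate 2 or unexposed replicate 2, and -0.015 without unexposed replicate 3. At an unadjusted p below 0.05, 0 were lower (2.31% of all genes) and 0 were higher (2.07% of all genes), and leaving out 1 library at a time gave 0 to 3, the 3 without unexposed replicate 2 and 1 without triclosan replicate 3, triclosan replicate 4 or unexposed replicate 3. No gene had fully separate libraries, in either the lower (1.55% of all genes) or the higher direction (1.24% of all genes). The 3 exposures share the same 4 unexposed livers, so their differences are not independent of one another.

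**Figure D2:**
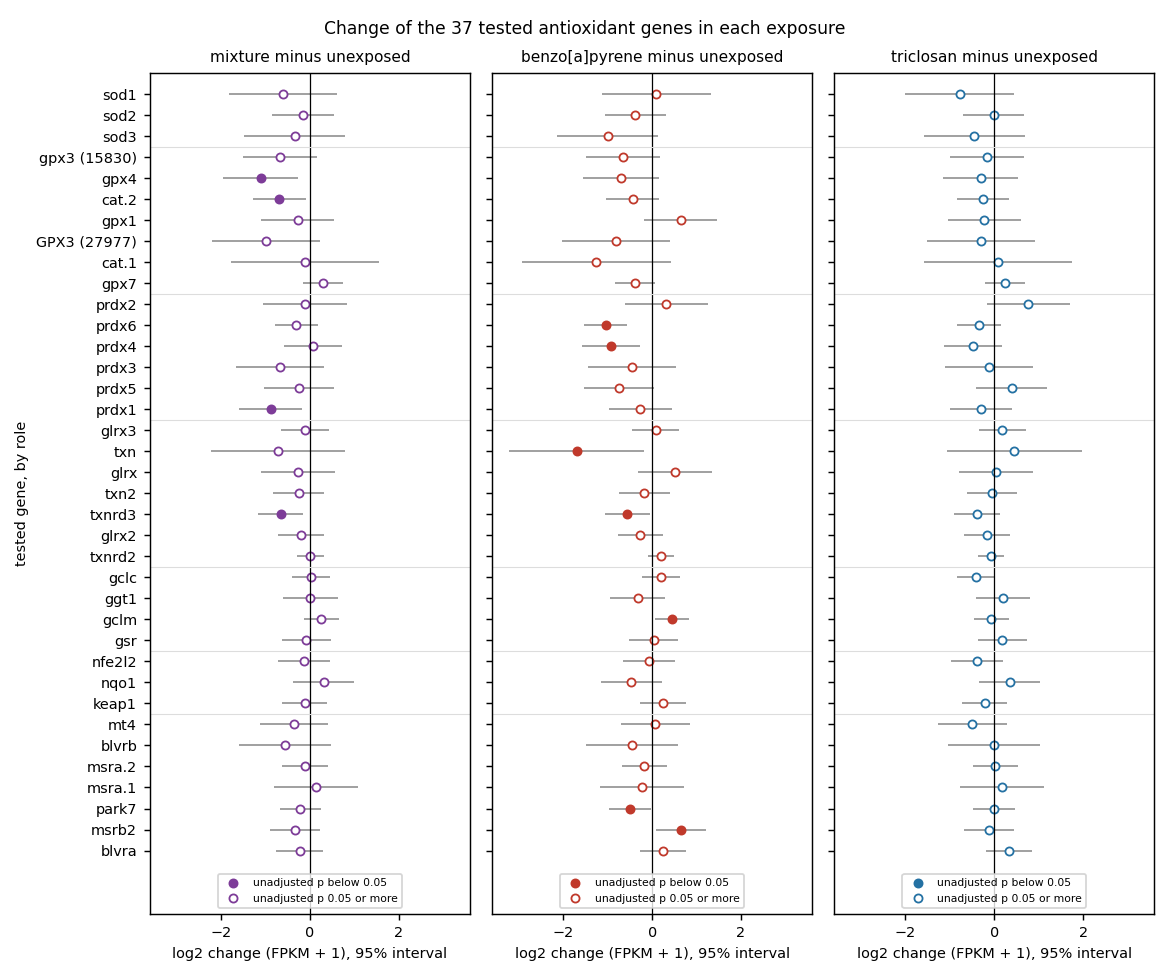
Log2 difference from unexposed livers on the log2(FPKM + 1) scale, with 95% intervals from limma, for the 37 tested genes by role in mixture, benzo[a]pyrene and triclosan livers (4 libraries per group). Filled points have an unadjusted p below 0.05: 4 in the mixture, 7 in benzo[a]pyrene and 0 in triclosan.

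The peroxiredoxins, thiol peroxidases found from the cytosol to the mitochondria and the endoplasmic reticulum, held the smallest p of the 37 genes. It belonged to prdx6 in benzo[a]pyrene livers (ENSXETG00000000525, scaffold GL172721.1, 2299128 to 2307302), a peroxidase that uses glutathione and reduces phospholipid hydroperoxides. Its level was 97.2, 70.2, 82.0 and 52.6 FPKM in mixture livers, 43.8, 48.0, 53.2 and 32.3 FPKM in benzo[a]pyrene livers, 60.2, 62.2, 91.9 and 76.3 FPKM in triclosan livers, and 83.6, 90.1, 80.9 and 114 FPKM in unexposed livers. The 4 benzo[a]pyrene livers were lower than every other liver except for mixture replicate 4, whose value lay just under the highest of them. Means were 75.5 ± 18.8 in mixture livers, 44.3 ± 8.88 in benzo[a]pyrene livers, 72.6 ± 14.7 in triclosan livers and 92.1 ± 14.9 in unexposed livers (FPKM, SD, n = 4 each). The log2 difference from unexposed was -1.05 ± 0.23 (limma, unadjusted p = 0.000343, adjusted p = 0.107) in benzo[a]pyrene, with a 95% interval of -1.53 to -0.56, and -0.30 ± 0.23 in the mixture and -0.35 ± 0.23 in triclosan. In whole liver, fewer cells of a type and less RNA per cell cannot be told apart. Over the alternatives and left-out libraries, the benzo[a]pyrene difference ran from -1.14 to -0.90, and its smallest adjusted p was 0.0502 (limma).

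Second among them came prdx4 (ENSXETG00000010361, scaffold GL172700.1, 746686 to 755931), the peroxiredoxin of the endoplasmic reticulum. It stood at 49.6, 40.5, 64.3 and 68.7 FPKM in mixture livers, 36.6, 34.0, 23.9 and 17.2 FPKM in benzo[a]pyrene livers, 38.8, 48.5, 45.7 and 22.5 FPKM in triclosan livers, and 50.2, 33.9, 66.6 and 64.7 FPKM in unexposed livers. Benzo[a]pyrene livers overlapped unexposed livers through unexposed replicate 2 only, and every one of them lay below every mixture liver. The difference from unexposed was -0.93 ± 0.31 (limma, unadjusted p = 0.00799, adjusted p = 0.204) in benzo[a]pyrene, 0.07 ± 0.31 in the mixture and -0.47 ± 0.31 in triclosan.

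The cytosolic prdx1 had its lowest mean in the mixture. It was measured at 2.18, 5.98, 5.14 and 5.30 FPKM in mixture livers, 8.20, 5.51, 8.71 and 7.28 FPKM in benzo[a]pyrene livers, 6.16, 4.24, 13.8 and 6.93 FPKM in triclosan livers, and 14.3, 10.5, 5.80 and 7.34 FPKM in unexposed livers. Mixture replicate 1 was the lowest library and the ranges of mixture and unexposed livers overlapped at the edge. Set against unexposed, the log2 difference was -0.89 ± 0.33 (limma, unadjusted p = 0.0172, adjusted p = 0.731) in the mixture, -0.26 ± 0.33 in benzo[a]pyrene and -0.30 ± 0.33 in triclosan.

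The other 3 peroxiredoxins varied widely within groups. prdx2, the abundant cytosolic form known for its place in red cells, stood at 207, 258, 163 and 128 FPKM in mixture livers, 388, 258, 134 and 275 FPKM in benzo[a]pyrene livers, 629, 222, 397 and 231 FPKM in triclosan livers, and 110.3, 224, 421 and 145 FPKM in unexposed livers, and the 4 groups overlapped. prdx5, a form of mitochondria, peroxisomes and cytosol, stood at 8.28, 14.9, 8.02 and 8.44 FPKM in mixture livers, 10.04, 5.84, 5.92 and 5.14 FPKM in benzo[a]pyrene livers, 16.4, 11.002, 28.0 and 11.3 FPKM in triclosan livers, and 9.02, 25.4, 11.9 and 6.40 FPKM in unexposed livers. Here benzo[a]pyrene livers lay below all triclosan livers but overlapped unexposed livers, from which they differed by -0.74 ± 0.37 (limma, unadjusted p = 0.0630, adjusted p = 0.358). The mitochondrial prdx3 ranged from 6.22 to 37.03 FPKM over the 16 libraries, with differences from unexposed of -0.68 ± 0.46 in the mixture, -0.45 ± 0.46 in benzo[a]pyrene and -0.11 ± 0.46 in triclosan.

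**Figure D3:**
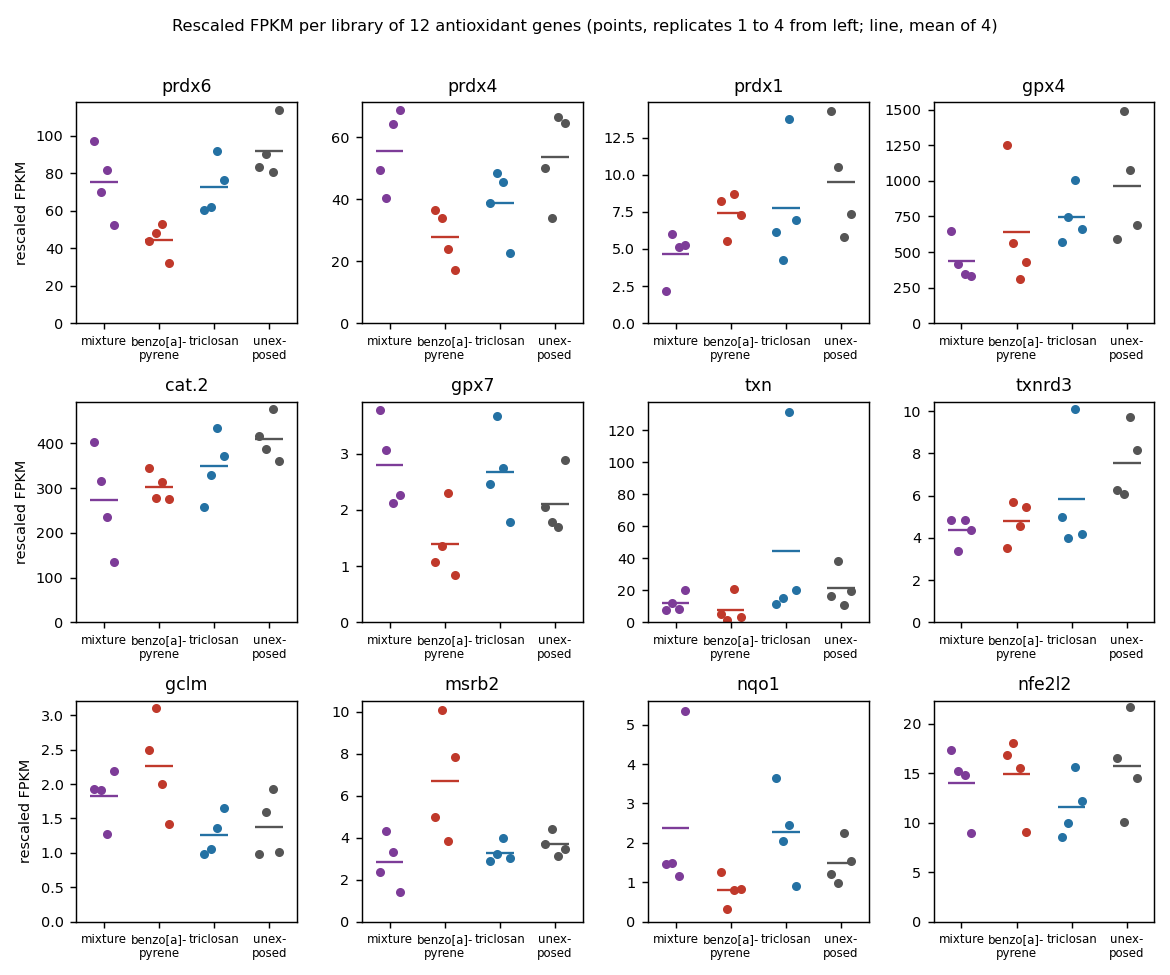
FPKM per library of 12 of the genes in mixture, benzo[a]pyrene, triclosan and unexposed livers, with points for replicates 1 to 4 from left and a line at the mean of 4. The benzo[a]pyrene points of prdx6 lie between 32.3 and 53.2 FPKM and the unexposed points between 80.9 and 113.7 FPKM, while triclosan replicate 3 stands alone at 131.2 FPKM for txn.

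Glutathione peroxidases and catalase carried the largest summed level of any role. Their sum ran from 1623 to 3268 FPKM in mixture livers, from 2153 to 3355 FPKM in benzo[a]pyrene livers and from 2716 to 5477 FPKM in triclosan livers, against 4092 to 4469 FPKM in unexposed livers. The mixture and benzo[a]pyrene sums lay below all unexposed sums. The largest part of each sum was gpx3, except in benzo[a]pyrene replicate 1, where it was gpx4. This sum is a description of these libraries and was not tested. In every other role the mixture and benzo[a]pyrene sums overlapped the unexposed sums. For the peroxiredoxins they ran from 269.6 to 413.6 FPKM in mixture livers and from 234.8 to 509.7 FPKM in benzo[a]pyrene livers. The peroxiredoxin sums of unexposed livers ran from 291.5 to 623.6 FPKM. How many other sets of genes would separate in this way was not counted.

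For gpx3 itself (ENSXETG00000015830, scaffold GL172914.1, 630468 to 631359), values were 1472, 1473, 2223 and 889 FPKM in mixture livers, 1073, 1715, 2423 and 1006 FPKM in benzo[a]pyrene livers, 1148, 1479, 3335 and 3105 FPKM in triclosan livers, and 2726, 1733, 1954 and 3028 FPKM in unexposed livers. All groups overlapped, and the differences from unexposed were -0.68 ± 0.39 (limma, unadjusted p = 0.104, adjusted p = 0.765) in the mixture, -0.66 ± 0.39 in benzo[a]pyrene and -0.17 ± 0.39 in triclosan. A second row of the same symbol, GPX3 (ENSXETG00000027977, scaffold GL172914.1, 620786 to 628091), lies a few kilobases away on the same scaffold. It averaged 120.5 ± 57.2 in mixture livers, 145 ± 87.9 in benzo[a]pyrene livers, 214 ± 168 in triclosan livers and 229 ± 96.9 in unexposed livers (FPKM, SD, n = 4 each). The RefSeq gene table for the assembly UCB_Xtro_10.0 lists 1 gpx3 gene, so reads of 1 gene may be split over both rows and each value is uncertain.

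The phospholipid hydroperoxide peroxidase gpx4 (ENSXETG00000027257, scaffold GL172925.1, 655277 to 658688), which guards membranes against lipid peroxidation, had the largest difference among the genes lower in the mixture. It measured 649, 413, 345 and 331 FPKM in mixture livers, 1254, 561, 309.6 and 432 FPKM in benzo[a]pyrene livers, 568, 745, 1009 and 660.0 FPKM in triclosan livers, and 593, 1492, 1077 and 687 FPKM in unexposed livers. Of the mixture livers, 3 lay below all unexposed livers and replicate 1 lay among them, while benzo[a]pyrene replicate 1 was the second highest of all 16. The difference from unexposed was -1.10 ± 0.40 (limma, unadjusted p = 0.0138, adjusted p = 0.731) in the mixture and -0.99 without mixture replicate 4. In benzo[a]pyrene it was -0.70 ± 0.40 and in triclosan -0.30 ± 0.40.

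Catalase, the peroxisomal enzyme that splits hydrogen peroxide, was present as the copies cat.1 and cat.2. For cat.2 (ENSXETG00000003981, scaffold GL172718.1, 261582 to 277792) the values were 402, 317, 235 and 136 FPKM in mixture livers, 344, 278, 314 and 277 FPKM in benzo[a]pyrene livers, 258, 328, 435 and 372 FPKM in triclosan livers, and 416, 388, 476 and 360.3 FPKM in unexposed livers. Benzo[a]pyrene livers lay entirely below unexposed livers, though narrowly, and the mixture values reached both higher and lower than the benzo[a]pyrene values. For cat.2 the difference from unexposed was -0.69 ± 0.28 (limma, unadjusted p = 0.0252, adjusted p = 0.731) in the mixture, -0.39 there without mixture replicate 4, -0.43 ± 0.28 (limma, unadjusted p = 0.139, adjusted p = 0.472) in benzo[a]pyrene and -0.25 ± 0.28 in triclosan. cat.1 had the widest spread of the 37 genes, with a within-group SD of 1.23 log2 units and a range from 10.1 FPKM in benzo[a]pyrene replicate 2 to 492.9 FPKM in triclosan replicate 1.

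The remaining tested peroxidases are gpx7 and gpx1. gpx7, a low-level peroxidase of the endoplasmic reticulum, stood at 3.78, 3.07, 2.12 and 2.26 FPKM in mixture livers, 1.08, 1.36, 2.30 and 0.850 FPKM in benzo[a]pyrene livers, 2.46, 3.67, 2.74 and 1.79 FPKM in triclosan livers, and 2.04, 1.78, 1.69 and 2.89 FPKM in unexposed livers. Replicates 1, 2 and 4 of benzo[a]pyrene were the lowest of the 16 libraries, and replicate 3 overlapped the other groups. The differences were 0.68 ± 0.21 (limma, unadjusted p = 0.00550, adjusted p = 0.206) for the mixture against benzo[a]pyrene, -0.62 ± 0.21 (limma, unadjusted p = 0.00962, adjusted p = 0.227) for benzo[a]pyrene against triclosan and -0.39 ± 0.21 for benzo[a]pyrene against unexposed. gpx1, the cytosolic glutathione peroxidase, is given here although it fell outside the rule for named genes and was chosen after its values were seen. It stood at 169, 148, 285 and 70.4 FPKM in mixture livers, 297, 404, 176 and 307 FPKM in benzo[a]pyrene livers, 142, 117, 119 and 294 FPKM in triclosan livers, and 212, 173, 168 and 177 FPKM in unexposed livers. The 4 unexposed livers lay close together, and 3 of 4 benzo[a]pyrene livers lay above them, with a difference of 0.64 ± 0.39 (limma, unadjusted p = 0.117, adjusted p = 0.443).

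Superoxide dismutases overlapped between all groups. sod1 stood at 215, 823, 355 and 320.4 FPKM in mixture livers, 1076, 779, 156 and 1088 FPKM in benzo[a]pyrene livers, 258, 322, 623 and 242 FPKM in triclosan livers, and 575, 893, 651 and 327 FPKM in unexposed livers, with a within-group SD of 0.892 log2 units. sod2, the mitochondrial manganese enzyme, stood at 35.9, 38.4, 26.3 and 12.15 FPKM in mixture livers, 33.5, 20.5, 17.3 and 19.8 FPKM in benzo[a]pyrene livers, 32.7, 24.0, 32.7 and 26.0 FPKM in triclosan livers, and 24.3, 28.6, 44.8 and 22.4 FPKM in unexposed livers. Neither had an unadjusted p below 0.05, and their differences from unexposed were -0.61 ± 0.57 and -0.15 ± 0.33 in the mixture, 0.10 ± 0.57 and -0.38 ± 0.33 in benzo[a]pyrene, and -0.78 ± 0.57 and -0.02 ± 0.33 in triclosan, in the order sod1 and sod2. The secreted sod3 averaged 8.84 ± 1.95 in mixture livers, 7.27 ± 5.82 in benzo[a]pyrene livers, 8.06 ± 1.41 in triclosan livers and 12.3 ± 6.08 in unexposed livers (FPKM, SD, n = 4 each), with 0.423 FPKM in benzo[a]pyrene replicate 4 as the lowest library. ccs, which loads copper into the sod1 protein, averaged 0.297 FPKM over all libraries and did not enter the main tests.

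Thioredoxin, encoded by txn (ENSXETG00000002592, scaffold GL173226.1, 374764 to 381464), is the small protein that reduces peroxiredoxins and methionine sulfoxide reductases. It had the largest fitted difference of the 37 genes in benzo[a]pyrene livers and one of the widest spreads, a within-group SD of 1.12 log2 units. Its level was 7.55, 12.3, 8.24 and 20.0 FPKM in mixture livers, 5.24, 1.67, 21.0 and 3.02 FPKM in benzo[a]pyrene livers, 11.3, 15.5, 131 and 20.4 FPKM in triclosan livers, and 16.3, 38.0, 10.6 and 19.7 FPKM in unexposed livers. Benzo[a]pyrene replicates 1, 2 and 4 were the 3 lowest of the 16 libraries, replicate 3 lay among the unexposed livers, and triclosan replicate 3 was more than 3 times the next library. Its log2 difference from unexposed was -1.69 ± 0.71 (limma, unadjusted p = 0.0306, adjusted p = 0.302) for benzo[a]pyrene, -0.72 ± 0.71 for the mixture and 0.45 ± 0.71 for triclosan. The benzo[a]pyrene value ran from -2.30 without its replicate 3 to -1.29 without its replicate 2, over the left-out libraries and the alternatives.

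The reductase txnrd3 (ENSXETG00000004794, scaffold GL172989.1, 66954 to 85085), which can reduce both thioredoxin and glutathione disulfide, was the one gene with separate libraries in both the mixture and benzo[a]pyrene. It stood at 4.86, 3.39, 4.85 and 4.38 FPKM in mixture livers, 3.53, 5.67, 4.56 and 5.47 FPKM in benzo[a]pyrene livers, 4.997, 4.00, 10.1 and 4.16 FPKM in triclosan livers, and 6.26, 6.10, 9.71 and 8.16 FPKM in unexposed livers. Every mixture and benzo[a]pyrene liver lay below the lowest unexposed liver, as did 3 of 4 triclosan livers. The differences from unexposed were -0.66 ± 0.24 (limma, unadjusted p = 0.0152, adjusted p = 0.731) in the mixture, -0.55 ± 0.24 (limma, unadjusted p = 0.0363, adjusted p = 0.319) in benzo[a]pyrene and -0.39 ± 0.24 (limma, unadjusted p = 0.128, adjusted p = 0.965) in triclosan.

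Its relatives showed other patterns. txnrd2 was the steadiest of the 37 genes, with a within-group SD of 0.165 log2 units and 1.48 to 2.90 FPKM over all libraries. The row txnrd1, the cytosolic reductase, was listed at 0 in 12 of 16 libraries and nowhere above 0.0507 FPKM. glrx3, a glutaredoxin of iron handling and the highest of its role on average, stood at 31.2, 41.3, 34.8 and 18.5 FPKM in mixture livers, 42.3, 39.8, 33.6 and 26.0 FPKM in benzo[a]pyrene livers, 46.6, 30.9, 38.6 and 34.7 FPKM in triclosan livers, and 37.9, 36.1, 34.6 and 24.4 FPKM in unexposed livers, with differences from unexposed of -0.11 ± 0.25 in the mixture, 0.08 ± 0.25 in benzo[a]pyrene and 0.18 ± 0.25 in triclosan. The mitochondrial txn2 and glrx2 and the cytosolic glrx had unadjusted p above 0.05 in each exposure against unexposed.

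Glutathione is made by the 2-subunit glutamate-cysteine ligase and then by glutathione synthetase, gss. The modifier subunit gclm (ENSXETG00000008224, scaffold GL172706.1, 2200045 to 2212975) measured 1.92, 1.91, 1.28 and 2.20 FPKM in mixture livers, 2.50, 3.10, 2.00 and 1.42 FPKM in benzo[a]pyrene livers, 0.979, 1.05, 1.36 and 1.64 FPKM in triclosan livers, and 0.982, 1.60, 1.93 and 1.01 FPKM in unexposed livers. Of the benzo[a]pyrene livers, 3 of 4 lay above all unexposed livers, and replicate 4 lay among them. Against unexposed, gclm differed by 0.45 ± 0.18 (limma, unadjusted p = 0.0280, adjusted p = 0.291) in benzo[a]pyrene, 0.26 ± 0.18 in the mixture and -0.07 ± 0.18 in triclosan. The catalytic subunit gclc measured 2.43, 2.10, 3.30 and 2.11 FPKM in mixture livers, 2.51, 2.93, 3.36 and 2.98 FPKM in benzo[a]pyrene livers, 1.62, 1.61, 0.779 and 2.57 FPKM in triclosan livers, and 2.42, 1.57, 3.19 and 2.67 FPKM in unexposed livers. Triclosan replicate 3 was the lowest library, and benzo[a]pyrene against triclosan differed by 0.61 ± 0.20 (limma, unadjusted p = 0.00815, adjusted p = 0.213) while benzo[a]pyrene against unexposed differed by 0.20 ± 0.20.

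Of the enzymes that recycle or break down glutathione, ggt1, a gamma-glutamyltransferase of the cell surface, measured 1.94, 2.30, 1.32 and 3.36 FPKM in mixture livers, 1.19, 1.20, 2.25 and 1.51 FPKM in benzo[a]pyrene livers, 2.18, 1.496, 6.06 and 1.96 FPKM in triclosan livers, and 1.79, 3.28, 2.06 and 1.63 FPKM in unexposed livers. All groups overlapped. Glutathione reductase gsr ranged from 0.728 to 3.43 FPKM, with differences from unexposed of -0.09 ± 0.26 in the mixture, 0.04 ± 0.26 in benzo[a]pyrene and 0.18 ± 0.26 in triclosan. gss stayed under 1 FPKM in all 16 libraries and was not in the main tests.

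No tested gene of the NRF2 axis had separate libraries between an exposure and unexposed. nfe2l2 measured 17.3, 15.2, 14.8 and 8.93 FPKM in mixture livers, 16.9, 18.1, 15.5 and 9.07 FPKM in benzo[a]pyrene livers, 8.57, 9.97, 15.7 and 12.17 FPKM in triclosan livers, and 16.6, 10.1, 21.7 and 14.5 FPKM in unexposed livers, and its differences from unexposed were -0.14 ± 0.28 in the mixture, -0.07 ± 0.28 in benzo[a]pyrene and -0.39 ± 0.28 in triclosan, with 95% intervals of -0.73 to 0.45, -0.66 to 0.52 and -0.98 to 0.19. keap1 averaged 0.986 ± 0.275 in mixture livers, 1.65 ± 0.851 in benzo[a]pyrene livers, 0.862 ± 0.249 in triclosan livers and 1.22 ± 0.709 in unexposed livers (FPKM, SD, n = 4 each). nqo1, the quinone reductase that is a common readout of NRF2 activity, measured 1.47, 1.49, 1.15 and 5.36 FPKM in mixture livers, 1.26, 0.330, 0.814 and 0.818 FPKM in benzo[a]pyrene livers, 3.65, 2.05, 2.47 and 0.913 FPKM in triclosan livers, and 1.21, 0.982, 2.25 and 1.55 FPKM in unexposed livers. Benzo[a]pyrene livers held the lowest values and overlapped all groups. Mixture replicate 4 was the highest of all 16 libraries. The differences were 0.77 ± 0.33 (limma, unadjusted p = 0.0307, adjusted p = 0.333) for the mixture against benzo[a]pyrene, 0.43 there without mixture replicate 4, -0.47 ± 0.33 (limma, unadjusted p = 0.170, adjusted p = 0.505) for benzo[a]pyrene against unexposed and -0.81 ± 0.33 (limma, unadjusted p = 0.0241, adjusted p = 0.297) for benzo[a]pyrene against triclosan. The small Maf partners maff, mafg and mafk were listed at 0 in 8, 12 and 9 of 16 libraries.

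Among the repair and metal-binding genes, msrb2 (ENSXETG00000005916, scaffold GL172683.1, 2331359 to 2342015), which repairs oxidized methionine in mitochondria, was higher on average in benzo[a]pyrene livers. It measured 2.35, 4.33, 3.33 and 1.40 FPKM in mixture livers, 4.99, 10.1, 3.82 and 7.84 FPKM in benzo[a]pyrene livers, 2.86, 3.24, 3.97 and 3.05 FPKM in triclosan livers, and 3.70, 4.42, 3.13 and 3.44 FPKM in unexposed livers. Replicates 1, 2 and 4 of benzo[a]pyrene were the 3 highest of the 16 libraries and replicate 3 lay among the unexposed livers. Relative to unexposed livers it differed by 0.65 ± 0.26 (limma, unadjusted p = 0.0257, adjusted p = 0.288) in benzo[a]pyrene, -0.33 ± 0.26 in the mixture and -0.13 ± 0.26 in triclosan.

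The redox-sensing chaperone park7, also known as DJ-1, measured 4.08, 4.04, 3.68 and 4.41 FPKM in mixture livers, 5.17, 3.33, 2.58 and 2.15 FPKM in benzo[a]pyrene livers, 4.78, 5.14, 6.96 and 3.03 FPKM in triclosan livers, and 4.53, 4.501, 6.08 and 4.45 FPKM in unexposed livers. All mixture livers lay just below the lowest unexposed liver, while benzo[a]pyrene replicate 1 lay among the unexposed livers and its other 3 replicates below them. The difference from unexposed was -0.49 ± 0.22 (limma, unadjusted p = 0.0417, adjusted p = 0.330) in benzo[a]pyrene, -0.21 ± 0.22 (limma, unadjusted p = 0.346, adjusted p = 0.818) in the mixture and -0.01 ± 0.22 in triclosan.

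The metallothionein mt4 measured 761, 762, 758 and 865 FPKM in mixture livers, 931, 1049, 1738 and 734 FPKM in benzo[a]pyrene livers, 883, 559.8, 507 and 1036 FPKM in triclosan livers, and 1509.7, 663, 1729 and 591 FPKM in unexposed livers. The unexposed livers fell into 2 high and 2 low values that spanned all but 3 of the 12 exposed livers. Metallothioneins bind zinc, copper and cadmium and can scavenge radicals. blvrb, a biliverdin and flavin reductase, measured 107, 151, 113 and 28.9 FPKM in mixture livers, 172, 92.3, 70.1 and 64.0 FPKM in benzo[a]pyrene livers, 97.6, 111, 211 and 111 FPKM in triclosan livers, and 89.8, 101, 257 and 109 FPKM in unexposed livers, and the groups overlapped. The methionine sulfoxide reductase copies msra.1 and msra.2 had unadjusted p above 0.05 in each exposure against unexposed.

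The exposures were also set directly against each other, again with no adjusted call among the 37 genes. The mixture against benzo[a]pyrene gave 4 higher genes at an unadjusted p below 0.05 (10.8% of the 37; 5.58% of all genes), prdx6, gpx7, prdx4 and nqo1, and 2 lower (5.41% of the 37; 7.55% of all genes), msrb2 and gpx1. For prdx6 the difference was 0.74 ± 0.23 (limma, unadjusted p = 0.00528, adjusted p = 0.203), for prdx4 1.00 ± 0.31 (limma, unadjusted p = 0.00508, adjusted p = 0.203) and for msrb2 -0.98 ± 0.26 (limma, unadjusted p = 0.00190, adjusted p = 0.187). The count of 6 was 11 without benzo[a]pyrene replicate 3 and 3 without benzo[a]pyrene and mixture replicates 4 together. The median log2 difference of the 37 genes was -0.11, against -0.03 over all. It was 0.13 without mixture replicate 4, 0.03 without benzo[a]pyrene replicate 2 and -0.24 without benzo[a]pyrene replicate 4, so that its sign rests on single libraries.

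Benzo[a]pyrene against triclosan gave 4 higher genes (10.8% of the 37; 7.99% of all genes), msrb2, gpx1, gclm and gclc, and 6 lower (16.2% of the 37; 5.88% of all genes), prdx6, txn, prdx5, park7, gpx7 and nqo1. The difference was -0.70 ± 0.23 (limma, unadjusted p = 0.00769, adjusted p = 0.209) for prdx6, -2.15 ± 0.71 (limma, unadjusted p = 0.00846, adjusted p = 0.216) for txn and -1.13 ± 0.37 (limma, unadjusted p = 0.00789, adjusted p = 0.212) for prdx5. The count of 10 was 6 without benzo[a]pyrene replicate 2. For txn it was -1.39 without triclosan replicate 3.

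The mixture against triclosan gave 0 higher genes (1.06% of all genes) and 1 lower (2.7% of the 37; 1.84% of all genes), the biliverdin reductase blvra, which was chosen after its values were seen. It measured 0.571, 0.470, 0.889 and 0.0770 FPKM in mixture livers and 1.40, 0.567, 0.865 and 2.19 FPKM in triclosan livers, a difference of -0.56 ± 0.25 (limma, unadjusted p = 0.0371, adjusted p = 0.998). Across the 4 groups, 8 genes had an unadjusted p below 0.05 (21.6% of the 37; 10.7% of all genes), in the order prdx6, msrb2, prdx4, gpx7, txn, gclm, gclc and prdx5. The smallest belonged to prdx6 (limma F test, unadjusted p = 0.00258, adjusted p = 0.229). The count was 2 without benzo[a]pyrene and mixture replicates 4 together, and 3 without either benzo[a]pyrene replicate 2 or benzo[a]pyrene replicate 4 alone. It was 5 without triclosan replicate 1, mixture replicate 2, unexposed replicate 1 or unexposed replicate 4.

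The wider redox pathways gave no adjusted call in any exposure. Of the 11 tested genes of NADPH supply, which feeds both thiol systems, 9 lay below 0 in the mixture (52.2% of all genes), 9 in benzo[a]pyrene (49.6%) and 8 in triclosan (50.1%). The one gene below an unadjusted p of 0.05 was me3, lower in the mixture (3.21% of all genes) and named after its value was seen. The pentose phosphate enzyme pgls averaged 15.5 ± 8.53 FPKM in mixture livers and 20.6 ± 2.95 FPKM in unexposed livers (SD, n = 4 each), a difference of -0.52 ± 0.36 (limma, unadjusted p = 0.169, adjusted p = 0.778). For tkt, the transketolase of the same pathway, the mixture difference was -0.47 ± 0.36 (limma, unadjusted p = 0.214, adjusted p = 0.788). It was -0.40 ± 0.39 for idh1 (limma, unadjusted p = 0.324, adjusted p = 0.814). For nadk2 the mixture was higher, by 0.21 ± 0.26 (limma, unadjusted p = 0.432, adjusted p = 0.851).

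Of 25 tested genes of glutathione precursors and turnover, 4 were lower in benzo[a]pyrene livers at an unadjusted p below 0.05 (6.06% of all genes) and 1 was higher (8.47%), with 0 in either direction in the mixture and 0 in triclosan. Among the 4 was cth, the cystathionine lyase that supplies cysteine, at 5.01, 2.23, 1.00 and 1.09 FPKM in benzo[a]pyrene livers and 2.74, 7.81, 6.35 and 4.68 FPKM in unexposed livers, a difference of -1.02 ± 0.37 (limma, unadjusted p = 0.0145, adjusted p = 0.251). Another was esd, which hydrolyses S-formylglutathione, at 15.5, 9.91, 13.7 and 8.18 FPKM in benzo[a]pyrene livers and 19.5, 30.9, 20.6 and 15.6 FPKM in unexposed livers, a difference of -0.82 ± 0.27 (limma, unadjusted p = 0.00772, adjusted p = 0.203). Every benzo[a]pyrene liver lay below every unexposed liver for esd, though the nearest pair was almost equal.

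Of 23 tested NRF2 partners and other known NRF2 targets, 6 were higher (8.47% of all genes) and 1 was lower (6.06%) in benzo[a]pyrene livers at an unadjusted p below 0.05. At the same p, 1 was higher (3.35%) and 0 were lower (3.21%) in the mixture, and 1 was higher (2.07%) and 1 lower (2.31%) in triclosan. The autophagy receptor sqstm1, which binds keap1, stood at 129, 97.98, 88.0 and 179 FPKM in benzo[a]pyrene livers and 76.8, 84.7, 59.7 and 73.9 FPKM in unexposed livers, every benzo[a]pyrene liver being the higher, a difference of 0.69 ± 0.23 (limma, unadjusted p = 0.00849, adjusted p = 0.208). nfe2, the NRF2 relative known for its role in red cell precursors, differed by 0.89 ± 0.29 (limma, unadjusted p = 0.00849, adjusted p = 0.208), and the carbonyl reductase CBR3 by 0.53 ± 0.19 (limma, unadjusted p = 0.0141, adjusted p = 0.251). Lower was ephx1, the microsomal epoxide hydrolase that acts on benzo[a]pyrene epoxides, at 17.3, 16.3, 18.1 and 20.4 FPKM in benzo[a]pyrene livers and 26.6, 37.3, 23.1 and 25.2 FPKM in unexposed livers, a difference of -0.59 ± 0.21 (limma, unadjusted p = 0.0130, adjusted p = 0.243).

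Of 12 tested genes of selenoprotein synthesis and other selenoproteins, 0 in the mixture, 3 in benzo[a]pyrene (6.06% of all genes) and 1 in triclosan (2.31%) were lower at an unadjusted p below 0.05, and 0 were higher. On average 8, 7 and 9 of the 12 lay below 0 in the mixture, benzo[a]pyrene and triclosan, in that order (52.2%, 49.6% and 50.1% of all genes). The endoplasmic reticulum selenoproteins vimp and selt differed from unexposed by -0.64 ± 0.28 (limma, unadjusted p = 0.0342, adjusted p = 0.313) and -0.54 ± 0.23 (limma, unadjusted p = 0.0347, adjusted p = 0.316) in benzo[a]pyrene. Of 15 tested other thioredoxin-fold proteins, 2 were higher (8.47% of all genes) and 1 was lower (6.06%) in benzo[a]pyrene at an unadjusted p below 0.05, with 0 in either direction in the mixture and in triclosan. On average 11, 11 and 13 of the 15 lay below 0 in the mixture, benzo[a]pyrene and triclosan, in that order (52.2%, 49.6% and 50.1% of all genes). Higher was glrx5, a mitochondrial glutaredoxin of iron-sulfur cluster assembly that red cell precursors need, at 118, 141, 59.1 and 103 FPKM in benzo[a]pyrene livers and 55.5, 63.8, 65.4 and 44.8 FPKM in unexposed livers, a difference of 0.81 ± 0.25 (limma, unadjusted p = 0.00554, adjusted p = 0.181). The difference was 1.06 ± 0.29 (limma, unadjusted p = 0.00227, adjusted p = 0.140) for clic4 and -0.80 ± 0.24 (limma, unadjusted p = 0.00405, adjusted p = 0.169) for clic1, both chloride channel proteins with a thioredoxin fold.

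Several of the 37 genes moved across the 16 libraries with markers of particular cell types. Of 296 correlations between the 37 genes and 8 marker scores, each the mean log2 deviation of a list's tested markers, 11 had a permutation p below 0.05 after Benjamini-Hochberg adjustment over all 296. The permutations shuffled all 16 libraries without regard to group. A difference between groups that gene and score share can therefore give a small p, and these p-values do not measure likeness within groups. The closest pair was txn and the granulocyte score, built on csf3r, mpo, mmp9 and epx (Pearson r = 0.97, adjusted permutation p = 0.0015; Spearman rho = 0.92, permutation p = 1e-05, the smallest that 100000 permutations give). Without triclosan replicate 3 and benzo[a]pyrene replicate 2, the 2 libraries farthest from the median score, r was 0.93, and over the 12 libraries without benzo[a]pyrene it was 0.96. Triclosan replicate 3, the highest in txn, had a granulocyte score of 1.96, and benzo[a]pyrene replicate 2, the lowest in txn, had -1.20. Most of the score's markers were low. Group means ran from 0.831 to 2.14 FPKM for csf3r, 0.264 to 2.69 FPKM for epx, 2.06 to 8.74 FPKM for mpo and 11.9 to 37.1 FPKM for mmp9. In benzo[a]pyrene livers all 4 tested granulocyte markers lay below unexposed (49.6% of all genes), with a median log2 difference of -0.74. The summed level of the 7 markers found ran from 4.18 to 32.8 FPKM against 13.7 to 40.9 FPKM in unexposed livers. Their part in the txn difference was not tested.

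For gpx1, the erythroid score gave r = 0.87 (adjusted permutation p = 0.0015; rho = 0.73, permutation p = 0.0018). It was 0.81 without benzo[a]pyrene replicates 1 and 2 and 0.79 over the 12 libraries without benzo[a]pyrene. msrb2 also followed the erythroid score with r = 0.81 (adjusted permutation p = 0.016), but rho was 0.48 (permutation p = 0.063). Its r was 0.41 over the 12 libraries without benzo[a]pyrene, a value that was not tested, and 0.69 without benzo[a]pyrene replicates 1 and 2. gpx7 ran against the erythroid score at r = -0.73 (adjusted permutation p = 0.04; rho = -0.63, permutation p = 0.0098), with -0.64 without benzo[a]pyrene replicates 1 and 2 and -0.34 without benzo[a]pyrene livers. In benzo[a]pyrene livers, all but 1 of 18 tested erythroid markers lay above unexposed, where 49.6% of all genes lay below, with a median log2 difference of 0.91. As said above, this list was chosen with earlier results of these data known. Its correlations with gpx1, msrb2 and gpx7, and their p-values, are therefore descriptions and not independent evidence. The row epb42 was listed at 0 in all libraries, while a second row, EPB42, was tested and averaged 2.28 to 4.58 FPKM over the groups. The globin rows hba1 and hbg1 had missing estimates and are not in the sum. Over the libraries with an estimate, hbg1 averaged 52680 FPKM in mixture livers, 62440 FPKM in benzo[a]pyrene livers, 69850 FPKM in triclosan livers and 46050 FPKM in unexposed livers. The part of red cell RNA in the gpx1, msrb2 and gpx7 values was not tested.

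**Figure D4:**
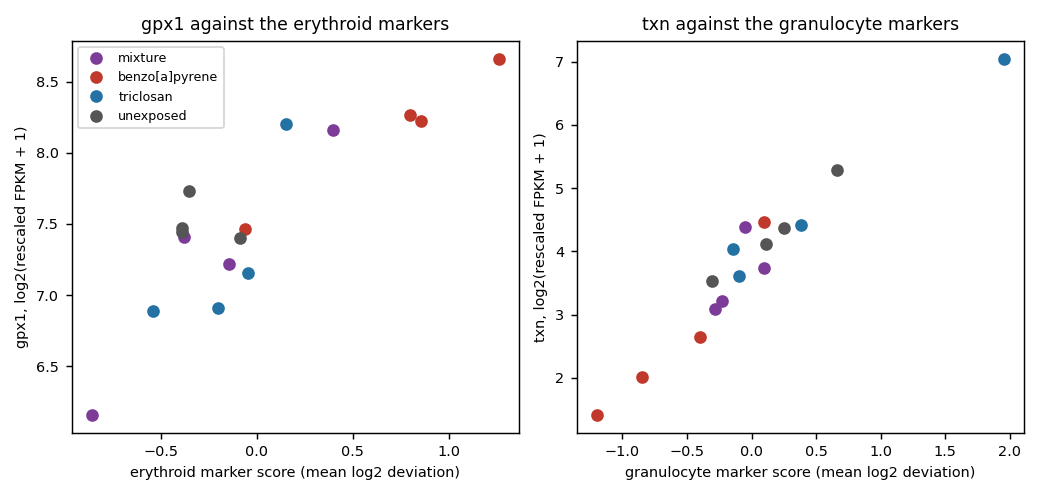
Level of gpx1 against the erythroid marker score (left) and of txn against the granulocyte marker score (right) in the 16 libraries, coloured by group, with levels as log2(FPKM + 1) and scores as mean log2 deviations. Pearson r is 0.87 for gpx1 and 0.97 for txn, and triclosan replicate 3 is the point at the upper right of the txn plot.

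The bile duct score, built on 8 tested markers, moved with gpx4 (r = 0.77, adjusted permutation p = 0.025; rho = 0.85, permutation p = 6e-05), with r = 0.92 without benzo[a]pyrene replicates 2 and 4. It also moved with park7 (r = 0.79, adjusted permutation p = 0.018; rho = 0.88, permutation p = 3e-05, with r = 0.67 without the same 2 libraries). All 8 tested bile duct markers lay below unexposed in benzo[a]pyrene livers (49.6% of all genes) and 7 of 8 in mixture livers (52.2%). Their median log2 differences were -0.62 and -0.32 in that order. The summed level of the list ran from 285.5 to 474.2 FPKM in mixture livers, from 221.2 to 439.2 FPKM in benzo[a]pyrene livers and from 324.9 to 551.2 FPKM in unexposed livers. The hepatocyte score was followed by park7 (r = 0.76, adjusted permutation p = 0.026; rho = 0.73, permutation p = 0.0021) and by prdx5 (r = 0.72, adjusted permutation p = 0.04; rho = 0.71, permutation p = 0.0025). Without benzo[a]pyrene replicate 4 and unexposed replicate 3, r was 0.61 for park7 and 0.72 for prdx5. Of the hepatocyte markers, 23 of 24 tested lay below unexposed in benzo[a]pyrene livers (49.6% of all genes), with a median of -0.44. prdx5 also moved with the bile duct score (r = 0.75, adjusted permutation p = 0.035; rho = 0.82, permutation p = 0.0002), with r = 0.66 without benzo[a]pyrene replicates 2 and 4. With the granulocyte score, r was 0.74 for prdx5 (adjusted permutation p = 0.032; rho = 0.54, permutation p = 0.033) and 0.84 for ggt1 (adjusted permutation p = 0.018; rho = 0.66, permutation p = 0.0069). Without triclosan replicate 3 and benzo[a]pyrene replicate 2 these were 0.53 for prdx5 and 0.55 for ggt1. Over the 12 libraries without benzo[a]pyrene, r with the bile duct score was 0.95 for gpx4, 0.51 for park7 and 0.6 for prdx5. With the hepatocyte score it was 0.56 for park7 and 0.57 for prdx5, and with the granulocyte score 0.7 for prdx5 and 0.82 for ggt1. The part of cell makeup in these genes' differences between groups was not tested. prdx6, the gene of smallest p in benzo[a]pyrene livers, had no adjusted p below 0.05 with any of the 8 scores. Its smallest adjusted permutation p was 0.075, with the bile duct score. There r was 0.66, and 0.36 over the 12 libraries without benzo[a]pyrene. Its r was 0.58 with granulocyte, -0.57 with erythroid, 0.54 with hepatocyte and -0.48 with lymphocyte markers. The part of cell makeup in the prdx6 difference was not tested either.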

How the data were processed

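Total RNA came from 15 mg of liver per biological replicate, libraries were made with a TruSeq Stranded mRNA kit, and 75 bp reads were taken on an Illumina GAIIx, per the labels' protocols. The values are FPKM per gene with a confidence interval and a status, deposited by the authors as Cufflinks gene tables, per the file headers. Per the submitters' processing notes, Trimmomatic 0.32.1, Bowtie 0.12.7, TopHat, TopHat2 0.6 and Cufflinks 0.0.7 were used; the sources used here give neither their settings nor the genome build. Of all estimates, 54 over 10 genes had a status other than OK and were set missing, 0 of them among the 49 genes.

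Each library was divided by a median-of-ratios factor over 3959 genes. Genes with at least 1 FPKM in at least 4 of 16 libraries and 3 OK estimates per group were fitted on log2(FPKM + 1) with limma 3.58.1 (R 4.3.3; 1 mean per group, trended and robust moderation, 12 residual degrees of freedom), two-sided, with Benjamini-Hochberg adjustment over 6918 genes and a threshold of 0.05. The code of the fit was checked on simulated, normally distributed values with known changes. That check does not show the power to detect the differences reported here. FPKM are not counts, so no count model was the main test. No sequence is shown, since no table of sequences was used here.

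Genes named with all values were those below an unadjusted p of 0.05 in an exposure against unexposed or among the 4 groups, those with separate libraries, and the 2 highest of each role. Pathway genes were named by smallest p among those of at least 5 FPKM in a group, in the exposure with the most genes of the list below 0.05; a gene outside these rules is said to be chosen after its values were seen. The genes, pathway lists and marker lists were chosen with earlier results of these data known. Alternatives were another pseudocount, other filters, other rescaling, the replicate number as a block, other moderation, 2-group fits, voom, and leaving out libraries.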

Additional observations from a re-analysis of the deposited data

Results flagged for a closer look

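Within each group of 4, the highest and the lowest library of every tested gene were compared with the other 3, and 14 of 148 groups held a library far from the others by Dixon's criterion on FPKM, all 14 of them high values. The criterion passes about 1 in 20 groups by chance where values are normally distributed, which right-skewed FPKM are not. On the log2(FPKM + 1) scale, added after the data were seen, 7 groups passed it, 6 of them among the 14.

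Triclosan replicate 3 held 5 of them. It had 131.2 FPKM of txn, the other triclosan livers having 11.3 to 20.4 FPKM, and 6.06 FPKM of ggt1, the others having 1.496 to 2.175 FPKM. It had 10.11 FPKM of txnrd3 (others 3.998 to 4.997 FPKM), 26.43 FPKM of prdx3 (others 18.8 to 19.7 FPKM) and 211.1 FPKM of blvrb (others 97.6 to 111.4 FPKM). The same library had the highest granulocyte marker score of the 16, at 1.96, and the part of that score in these values was not tested.

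Mixture replicate 4 had 5.355 FPKM of nqo1, the other mixture livers having 1.15 to 1.495 FPKM, and 864.8 FPKM of mt4, the others having 758.2 to 762.0 FPKM. Mixture replicate 2 had 14.91 FPKM of prdx5 (others 8.02 to 8.44 FPKM) and 23.32 FPKM of msra.2 (others 16.1 to 17.3 FPKM). Benzo[a]pyrene replicate 1 had 10.04 FPKM of prdx5 (others 5.14 to 5.92 FPKM), and triclosan replicate 4 had 293.6 FPKM of gpx1 (others 117.2 to 141.8 FPKM).

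Among the unexposed livers, replicate 3 had 6.082 FPKM of park7 (others 4.45 to 4.53 FPKM) and 256.9 FPKM of blvrb (others 89.8 to 109.0 FPKM), and replicate 2 had 31.52 FPKM of msra.2 (others 15.5 to 17.5 FPKM).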

How the results depend on the processing

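None of the 37 genes was called at an adjusted p below 0.05 under any alternative or left-out library: the number was 0 in each fit. Counts below an unadjusted p of 0.05 moved more. With a filter of at least 5 FPKM they were 4 for benzo[a]pyrene against unexposed (7 in the report), 3 for the mixture against benzo[a]pyrene (6), 0 for the mixture against triclosan (1), 4 for benzo[a]pyrene against triclosan (10) and 4 among the 4 groups (8). With FPKM as deposited, where the median of all genes shifts by -0.16 in the mixture against unexposed and by -0.13 in the mixture against benzo[a]pyrene, they were 3 for benzo[a]pyrene against unexposed, 0 for the mixture against triclosan and 4 among the 4 groups. Without a filter they were 1 for triclosan against unexposed (0) and 5 among the 4 groups. With voom they were 1 for triclosan against unexposed and 4 for the mixture against triclosan, where a pseudocount of 0.1 and a fit on the 2 groups alone each gave 2. Without benzo[a]pyrene and mixture replicates 4 together they were 3 for the mixture against benzo[a]pyrene, 0 for the mixture against triclosan and 2 among the 4 groups. The stricter filter tests fewer genes; the cause of the other moves was not tested.

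When replicate number entered the fit as a block, the count for the mixture against triclosan was 0, and no other count of the 37 genes moved by over 1.5 times. Over all tested genes the block left 0 adjusted calls in benzo[a]pyrene against unexposed (2 without it), in the mixture against benzo[a]pyrene (5) and in benzo[a]pyrene against triclosan (6). Of 24 correlations between same-numbered libraries of different groups, 6 were above 0.1 (range -0.25 to 0.263, median -0.047). The 2 highest were between replicates 4, 0.263 for the mixture and unexposed and 0.255 for benzo[a]pyrene and the mixture. Whether the numbers pair the samples cannot be told from these values.

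Leaving out 1 library gave 3 to 8 genes for benzo[a]pyrene against unexposed, 0 to 3 for triclosan against unexposed, 2 to 5 for the mixture against unexposed (2 without unexposed replicate 3), 4 to 11 for the mixture against benzo[a]pyrene, 0 to 3 for the mixture against triclosan (0 without triclosan replicate 1, 2 without triclosan replicate 4 or mixture replicate 3, 3 without triclosan replicate 2 or mixture replicate 1), 6 to 12 for benzo[a]pyrene against triclosan and 3 to 10 among the 4 groups. The median standard error of a difference was 0.31 log2 units for the 37 genes.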

Other observations

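The gamma-glutamyltransferase row ggt5 (ENSXETG00000004250, scaffold GL172648.1, 4834251 to 4855002), next to ggt1 on the same scaffold, lay below the level filter and was not in the main tests. It was picked after its values were seen. It measured 0.228, 0.333, 0.314 and 0 FPKM in mixture livers, 0.556, 1.00, 0.491 and 0.537 FPKM in benzo[a]pyrene livers, 0.235, 0.0817, 0.0960 and 0.0855 FPKM in triclosan livers and 0.0173, 0.0624, 0.116 and 0.234 FPKM in unexposed livers. All 4 benzo[a]pyrene livers lay above all 12 others. Of the 6918 tested genes, 4.96% had every benzo[a]pyrene library above every unexposed library. No share was counted for rows as low as ggt5, or for separation from all 12 libraries. The implied fragments were few, 9.96 to 49.05 per benzo[a]pyrene library and 0.0566 to 8.29 per unexposed library. They are derived as if the confidence intervals held counting error alone. A value of 0.0566 cannot be a count of fragments, so these numbers are rough. In the alternative without a filter on low values, which fitted 16451 genes, ggt5 was included. That fit called 1 gene in benzo[a]pyrene against unexposed at an adjusted p below 0.05 (limma), and it was not ggt5.

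Within the 37 tested genes, the pair whose levels ran most alike over the 16 libraries was blvrb and sod2 (Pearson r = 0.88), followed by txn and ggt1 (0.85), prdx3 and GPX3 (0.84) and txn2 and prdx3 (0.83). These are descriptions, since the pairs share their libraries and were picked as the highest of all pairs.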
